A study of Homo sapiens with 6 samples.

Results

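Long genes at common fragile sites are a set of 26 human protein-coding genes, named one by one for this account, out of 20037 protein-coding genes on chromosomes 1 to 22, X and Y. The set was FHIT, WWOX, MACROD2, IMMP2L, DMD, LRP1B, CNTNAP2, DLG2, NAALADL2, LSAMP, CTNNA3, CCSER1, DAB1, DPYD, ESRRG, GPC6, MAGI2, NBEA, RORA, SDK1, THSD7A, AUTS2, DIAPH2, MDGA2, EXOC4 and IL1RAPL1. All 26 were found in the RefSeq gene table, with lengths from 462 kb (THSD7A) to 2304 kb (CNTNAP2), a median of 1193 kb and 33.2 Mb in all. A site was given to a gene when its midpoint lay in the gene body.

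The sites are places of thymidine glycol (Tg), an oxidised thymidine, in the genome of HEK293T, a line grown from human embryonic kidney cells that expresses SV40 large T antigen. They were mapped by DPC-Seq. In this assay genomic DNA, cut to 100 to 300 bp, was incubated with purified NTHL1, a glycosylase that removes Tg and can be locked onto the DNA by reduction, and the locked fragments were enriched and sequenced. The wild-type group had 2 labelled libraries, and the double-knockout group (NTHL1-/-, NEIL1-/-) had 2 labelled libraries. Each genotype also had 1 input library, and the labels give no treatment of the cells. Whether the knockout line is 1 clone is not given in the sources used here, and no correction was made for the uneven copy number of the chromosomes in HEK293T.

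The deposited data hold 1 list of sites per genotype, with 3688 wild-type and 9373 double-knockout entries. So there was no spread between replicates and no test between genotypes. The intervals below are exact 95% Poisson or binomial intervals that cover counting error only, and neighbouring sites are not independent. The caller's lowest background at a summit, as recovered from the lists, was 1.69 times higher with the double knockout (1.25 reads) than with wild type (0.739 reads), and reads per library are unknown, so the lists were not matched for depth.

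Common fragile sites are regions that form gaps and breaks on metaphase chromosomes when replication is slowed. Many of them lie in very large genes, which tend to replicate late and from few origins, and deletions in them are frequent in tumours and tumour cell lines. Tg blocks replicative DNA polymerases and is cut out by base excision repair, which NTHL1 and NEIL1 start. The question here was how many Tg sites these genes held for their length, and where. No genome sequence was used here, and none of the 58 promoter windows listed for 25 of the genes touched a site, so no sequence is shown.

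Tg sites were sparse in the fragile-site genes in both genotypes. The 26 genes held 10 wild-type sites (interval 4.80 to 18.4) and 33 double-knockout sites (22.7 to 46.3), which were 0.271% and 0.352% of the lists. With the sites per base of each gene's own chromosome, the expected numbers were 39.6 and 101.4. The observed sites were therefore 0.253 times (0.121 to 0.465) and 0.326 times (0.224 to 0.457) the expected ones. In sites per Mb of gene, the level was 0.301 in wild type (0.144 to 0.553). In the double knockout it was 0.993 (0.683 to 1.39). Over all protein-coding genes they were 1.31 and 3.51 per Mb, which was 1.07 and 1.11 times the expectation.

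Counted by gene rather than by site, the set was nearer to other long genes. In wild type 5 of the 26 genes held a site (CNTNAP2, DAB1, AUTS2, WWOX and SDK1), against 5.88% of all protein-coding genes and 28.6% of the 315 protein-coding genes of at least 500 kb, which include all of the set but THSD7A. In the double knockout 14 of 26 held a site, against 14.0% and 54.6%. The double-knockout share of 53.8% was near the background of long genes, although the fragile-site genes were longer (median 1193 kb against 702 kb in the other 290 long genes). Sites under 0.5 times the expectation were found in 22 of 26 genes with the wild-type list and in 21 of 26 with the other, where the background of long genes was 72.1% and 59.4%. More sites than expected were found in 2 genes in wild type (SDK1 and AUTS2) and in 3 in the double knockout (DAB1, GPC6 and SDK1), where the background was 22.5% and 24.4%.

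**Figure D1:**
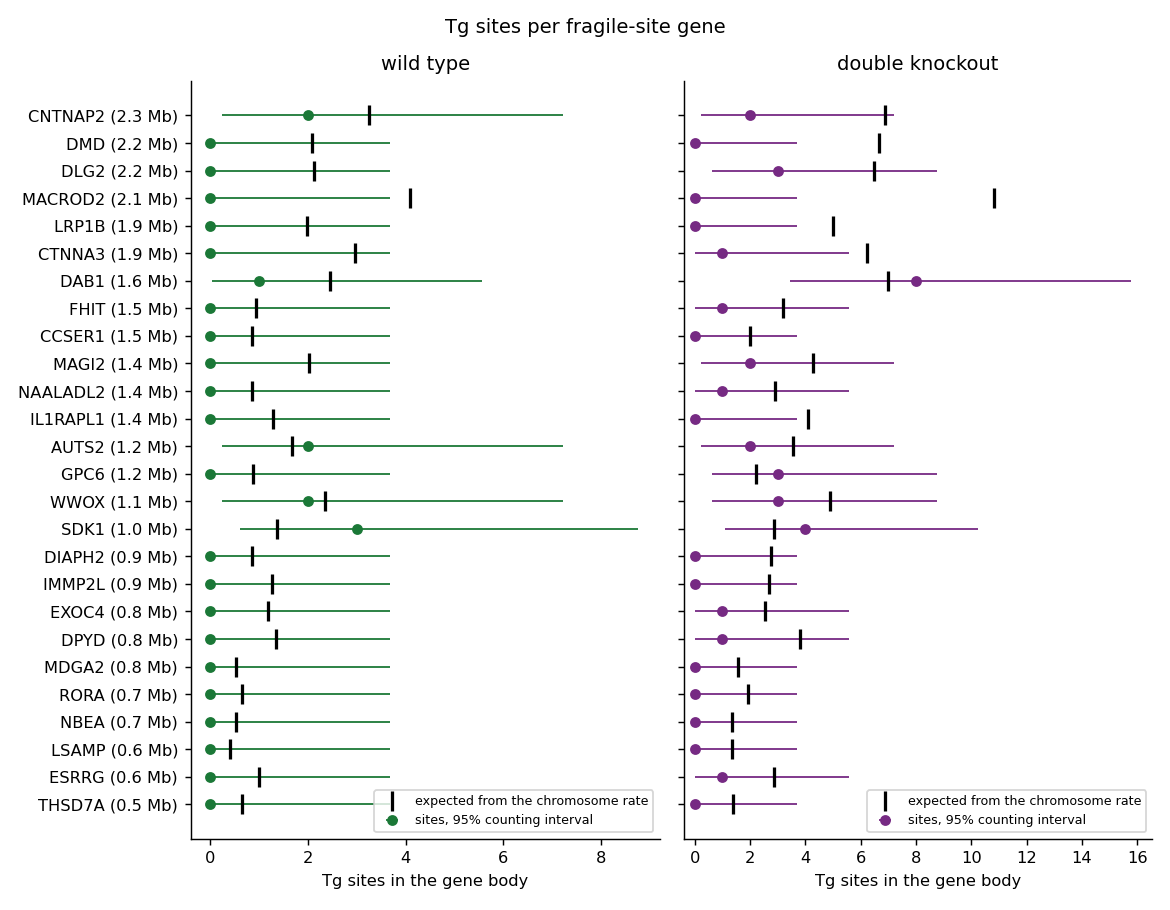
Tg sites in the body of each of the 26 genes (x axis, number of sites) in wild type (left) and the double knockout (right), with genes ordered by length. Points are counts with exact 95% Poisson intervals and black ticks are the sites expected from the rate of the gene's chromosome; MACROD2 has no site in either list against 4.10 and 10.8 expected, and DAB1 has 8 double-knockout sites against 6.99.

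Among the genes of metabolism and tumour suppression, 5 genes of 6.42 Mb held 2 wild-type and 5 double-knockout sites, where 9.98 and 25.4 were expected. WWOX, a tumour suppressor oxidoreductase at FRA16D (chromosome 16, 78099654 to 79212667, 1113 kb), gave both wild-type sites and 3 of the double-knockout sites, against 2.34 and 4.90 expected. Its wild-type sites lay at 78306654 to 78306897 (fold enrichment 6.51 over the caller's background, 11 reads at the summit) and at 78725654 to 78725991 (fold 3.56, 6 reads). In the double knockout the sites lay at 78205362 to 78205617 (fold 4.11, 14 reads), 78306579 to 78306979 (6.94, 17 reads) and 78398938 to 78399201 (6.18, 14 reads). The 3 double-knockout sites lay at most 299.4 kb from the 5′ end of the gene, and the middle one lay over the stronger wild-type site.

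FHIT, a dinucleoside triphosphate hydrolase and tumour suppressor at FRA3B (chromosome 3, 59747277 to 61251452, 1504 kb), held no wild-type site. Its only double-knockout site, at 60513738 to 60514236, had a fold enrichment of 7.11 with 15 reads (interval 8.40 to 24.7) and lay 49.0% of the way from the 5′ end. The expected numbers in FHIT were 0.933 and 3.19, so these counts do not separate it from the rate of its chromosome.

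MACROD2, which encodes a mono-ADP-ribosylhydrolase (chromosome 20, 2058 kb), held no site in either list. It had the highest expectation of the set, 4.10 wild-type and 10.8 double-knockout sites. A count of 0 allows up to 3 sites (a one-sided 95% limit, used here for every limit on a count of 0), which is 0.732 times the wild-type expectation and 0.277 times the double-knockout one. The two-sided counting interval of a count of 0, used for comparing intervals with expected numbers, is wider and ends at 3.69 sites. MACROD2 was the only one of the 26 genes, and of the 315 long genes (0.317%), whose wild-type counting interval ended below the expected number. This could only happen with more than 3.69 sites expected. Of the 26 genes only MACROD2 had that many in wild type, so this does not set it apart from the others. IMMP2L, a subunit of the mitochondrial inner membrane peptidase (900 kb), was also without sites, with 1.27 and 2.68 expected. DPYD, which encodes the enzyme that breaks down pyrimidines and 5-fluorouracil (843 kb), held 0 and 1 sites. The DPYD site (chromosome 1, 97230275 to 97230577, fold 4.89, 10 reads) also lay in DPYD-AS1, an antisense transcript.

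Genes grouped under adhesion and synapse made up 12 of the 26 genes and 16.5 Mb. The groups by role were made by hand for this account. This group takes in NAALADL2 and LRP1B, which are described below by other roles. Its 12 genes held 5 wild-type and 16 double-knockout sites, 0.274 times (0.0888 to 0.638) and 0.353 times (0.202 to 0.573) the expectation. SDK1, a cell adhesion protein of the immunoglobulin superfamily (chromosome 7, 3301252 to 4269000, 968 kb), held the most of these in both lists, 3 (wild type) and 4 (double knockout), against 1.36 and 2.89 expected. The centre of SDK1 lay 3.77 Mb from the annotated end of chromosome 7, nearer to an end than any other gene of the set. All 3 wild-type sites of SDK1 were found again. They had 13, 17 and 11 reads in wild type and 18, 17 and 17 reads in the double knockout. The fourth, at 3527510 to 3528314 in the double knockout only, was the strongest site in any of the 26 genes by q (−log10 q 15.1, fold 7.40, 30 reads, interval 20.2 to 42.8), and ranked 520 in its list.

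CNTNAP2, a neurexin-like protein of axons and the longest gene of the set (chromosome 7, 146116801 to 148420998), held 2 sites in each list, where 3.24 and 6.87 were expected. One of them was shared, at 146247981 to 146248223 in wild type (fold 4.42, 10 reads) and 146247861 to 146248188 in the double knockout (fold 3.90, 20 reads). It lay 131 kb from the 5′ end. The others, at 148135823 to 148136379 in wild type (fold 5.36, 15 reads) and at 147836335 to 147836590 in the double knockout (fold 5.68, 16 reads), were 299.6 kb apart. So the same count in both genotypes was made of partly different places.

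DLG2, a scaffold protein of the postsynaptic density (chromosome 11, 83455012 to 85628373, 2173 kb), held no wild-type site and 3 double-knockout sites, against 2.12 and 6.47 expected. These were at 83776422 to 83776873 (fold 4.34, 12 reads), 83808802 to 83809098 (fold 5.53, 13 reads) and 84106887 to 84107176 (fold 4.63, 11 reads). All 3 lay 70.0% or more of the way from the 5′ end and 1633 kb or more from the nearest wild-type site. GPC6, a cell surface heparan sulfate proteoglycan (chromosome 13, 93216529 to 94408020, 1191 kb), held 0 and 3 sites, against 0.865 and 2.22 expected. The GPC6 sites were spread over the gene, at 93355689 to 93356016 (fold 6.76, 30 reads), 93744190 to 93744532 (fold 3.96, 14 reads) and 94127247 to 94127539 (fold 4.14, 18 reads).

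MAGI2, a membrane-associated scaffold, held 2 double-knockout sites, and NAALADL2, a member of the glutamate carboxypeptidase family, and CTNNA3, a catenin of cell junctions, held 1 each. None of these had a wild-type site. In NAALADL2 the site (fold 3.01, 8 reads) lay 14.5 kb from the 3′ end of the gene and had a −log10 q of 1.48, the weakest among the 43 sites. LRP1B, a large lipoprotein receptor (1900 kb), LSAMP and MDGA2, neuronal adhesion proteins of the immunoglobulin superfamily, THSD7A, a thrombospondin domain protein, and IL1RAPL1, a synaptic receptor of the interleukin-1 receptor family, held none. LRP1B had 1.98 and 5.02 sites expected, and its 2 Mb of flanks held none either.

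Of the transcription genes, AUTS2 had 2 sites in each list, ESRRG, an orphan nuclear receptor, had 0 and 1, and RORA, a nuclear receptor of the circadian clock, had none. AUTS2, a chromatin-associated neurodevelopmental protein (chromosome 7, 69598475 to 70793506, 1195 kb), had both wild-type sites within 0.796 kb of each other, at 70495559 to 70496202 (fold 5.03, 14 reads) and 70496367 to 70496986 (fold 6.19, 19 reads). In the double knockout a single site of 1929 bp, at 70495515 to 70497443 (fold 7.64, 23 reads), covered both. It was the broadest site in the set and had the highest fold enrichment. A further double-knockout site lay at 70387079 to 70387369 (fold 4.67, 10 reads).

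Of the 6 genes of cytoskeleton, trafficking and signalling, DAB1 held all but one of the sites. DAB1, the adaptor of reelin signalling in neuronal migration (chromosome 1, 56994778 to 58546726, 1552 kb), held 1 wild-type site and 8 double-knockout sites (interval 3.45 to 15.8), against 2.46 and 6.99 expected. The wild-type site (57307543 to 57307812, fold 6.95, 16 reads) was shared with a double-knockout site of fold 5.25 and 21 reads. The other 7 had folds from 3.43 to 7.55 and 12 to 26 reads, and lay 109 kb or more from the wild-type site. The site at 58246455 to 58246930 (fold 5.02, 26 reads) was 3.81 kb from an annotated alternative start of DAB1, the nearest that any site in the set came to a start. Another, at 58048396 to 58048743, lay in the pseudogene HNRNPA1P6. With sites of at least 5-fold enrichment DAB1 held 4 in the double knockout. Without DAB1 the other 25 genes held 9 and 25 sites, 0.242 and 0.265 times the expectation.

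EXOC4, a subunit of the exocyst that tethers secretory vesicles, held 0 and 1 sites. NBEA, a vesicle trafficking protein of neurons, and CCSER1, a coiled-coil serine-rich protein, held none. The other site-free genes of this group were DMD, which encodes dystrophin, and DIAPH2, a formin. With IL1RAPL1 these are the 3 genes of the set on chromosome X, which together had 4.22 wild-type and 13.5 double-knockout sites expected and none observed. DMD alone had 2.08 and 6.65 expected, and the limit of 3 sites is 0.451 times the expectation in the double knockout.

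In all, 12 genes of 14.3 Mb held no site in either list, where 15.2 wild-type and 41.6 double-knockout sites were expected. They were also all the genes of the set without a double-knockout site, 46.2% of it. Of the 315 long genes, 45.4% had no double-knockout site, so this share was near the background. A count of 0 over these genes allows up to 3 sites, which is 0.197 and 0.0721 times the expectation. The genes were grouped here by their outcome, so this describes only how far the counts reach. One gene at a time, the double-knockout counting interval ended below the expected number in 5 genes (MACROD2, DMD, CTNNA3, LRP1B and IL1RAPL1), against 5.08% of the long genes. Those long genes include these 5. Even a count of 0 needs more than 3.69 expected sites for this, which longer genes reach more easily. The fragile-site genes were longer (median 1193 kb against 702 kb in the other long genes), so the 2 shares are not alike. In no gene did an interval start above it. The count of sites followed gene length weakly across the 26 genes (Spearman's rho 0.270 in the double knockout and 0.183 in wild type, as a description).

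**Figure D2:**
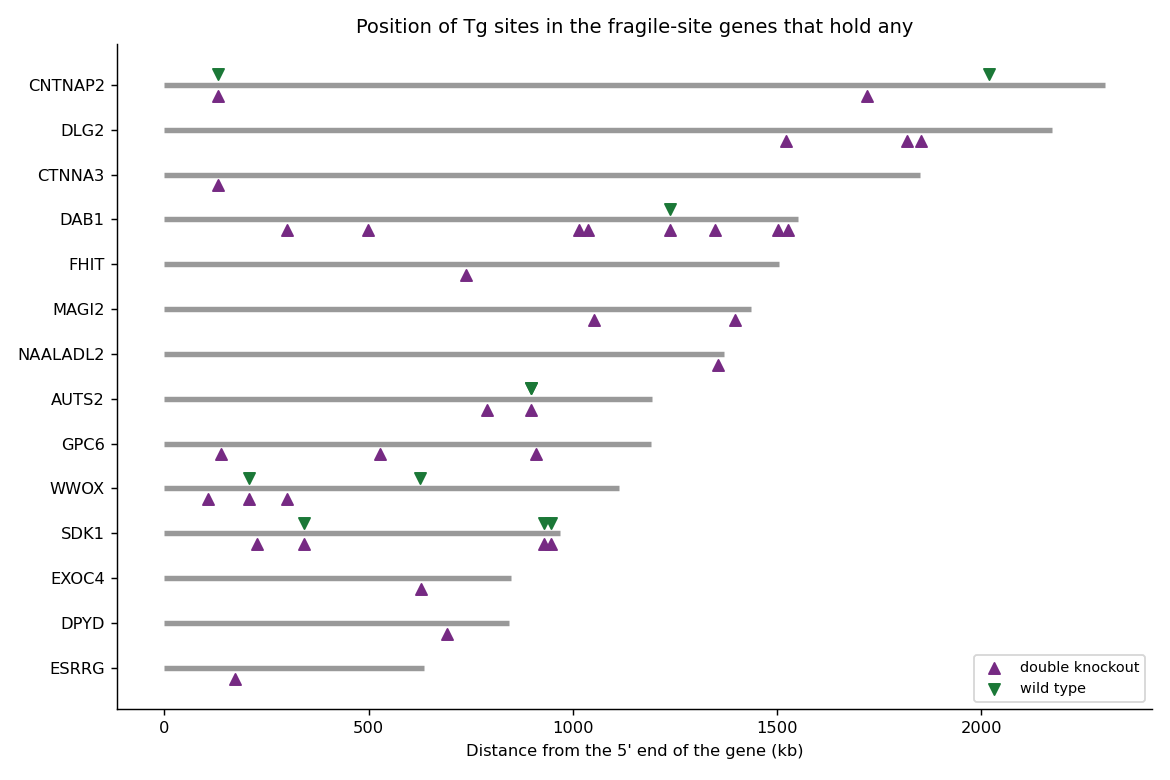
Positions of the sites in the 14 genes that hold any, drawn to scale from the 5′ end of the gene (x axis, kb; grey bar, gene body), with wild-type sites as triangles above and double-knockout sites below each bar. The 2 wild-type sites of AUTS2 lie 0.796 kb apart and appear as 1 triangle; 5 genes have sites in both lists and 9 only in the double knockout.

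No site lay within 10 kb of a gene end. The nearest site to a gene end was 20.5 kb away in wild type and 14.5 kb in the double knockout, with medians of 291 kb and 281 kb. Cut into 3 equal parts from the 5′ end, the genes held 2, 2 and 6 wild-type sites and 10, 5 and 18 double-knockout sites. The last part thus held 60.0% (26.2% to 87.8%) and 54.5% (36.4% to 71.9%), spread over 4 and 10 genes. In the 239 other long genes with a known strand this part held 38.3% of 167 sites (wild type) and 39.1% of 427 sites (double knockout). The intervals of the fragile-site genes held these shares, so the difference was within counting error. The lists also share sites and are not independent. Of the 18 double-knockout sites in the last part, 5 lay in DAB1 and 3 in DLG2. All but 4 of the double-knockout sites, and all 10 wild-type sites, lay in no other annotated gene.

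Compared with other long genes, the 26 fragile-site genes had fewer sites for their summed length. The other long genes are not free of fragile sites, as they include the 11 further genes known at fragile sites that are described below. The other 290 protein-coding genes of at least 500 kb held 218 wild-type and 547 double-knockout sites, 0.858 times (0.748 to 0.979) and 0.843 times (0.774 to 0.916) the expectation, or 0.948 and 2.38 per Mb. The most sites in both lists were in PTPRN2, in CDH4, the gene of R-cadherin (15 and 20), and in CAMTA1, a calmodulin-binding transcription activator (8 and 14, the latter tied with RBFOX1 and SORCS2). The 15 fragile-site genes of at least 1 Mb stood at 0.235 (0.0944 to 0.484) and 0.341 (0.223 to 0.50), and the 54 other genes of that length at 0.736 (0.559 to 0.952) and 0.706 (0.593 to 0.833). Of those, PTPRN2 alone held 24 and 29 sites. Without PTPRN2 the values were 0.440 (0.305 to 0.614) and 0.568 (0.466 to 0.684), so the intervals of the 2 sets then overlapped in both lists. Taken gene by gene, with PTPRN2 included, the median ratio in the double knockout was 0.313 in these fragile-site genes and 0.274 in the others. In wild type it was 0 in both. A site was held by 66.7% against 61.1% in the double knockout, and by 26.7% against 35.2% in wild type. So the lower summed level was not seen in the median gene of at least 1 Mb. With 1 list per genotype these differences have no test over samples.

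**Figure D3:**
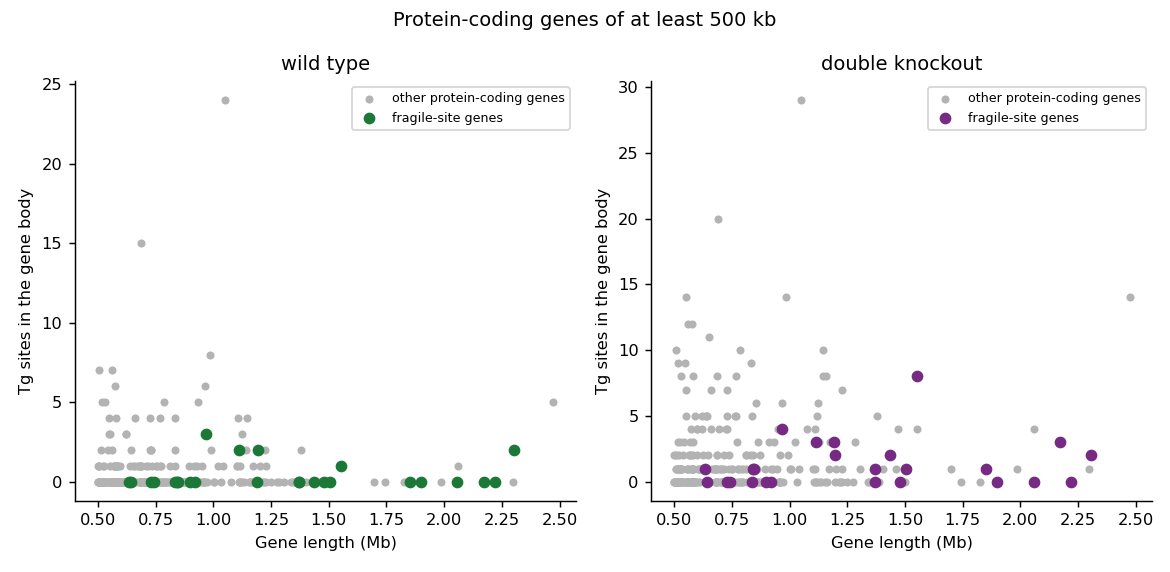
Length (x axis, Mb) and number of Tg sites (y axis) of the 315 protein-coding genes of at least 500 kb in wild type (left) and the double knockout (right), with fragile-site genes of the set in colour and the other 290 in grey. The grey points include 11 further genes known at fragile sites. The coloured points lie along the bottom, at no more than 3 wild-type sites and 8 double-knockout sites; the highest grey point is PTPRN2, with 24 and 29.

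By classes of flanking genes, given below, the ratio to expectation rose in the other long genes. In the 26 it rose less, and within counting error. Across the 26 genes, Spearman's rho of double-knockout sites per Mb was 0.238 with the number of flanking genes. With the double-knockout sites per Mb of the flanks it was 0.369, and with the distance from the chromosome end -0.180, all as a description. These rank correlations are a different measure from the ratios by class. The flanks of 1 Mb on either side of a fragile-site gene held a median of 7 protein-coding genes, from 1 to 20, against 9 for the other long genes and 22 for all protein-coding genes. Within 5 Mb of an annotated chromosome end lay 1 of the 26 (SDK1), 7.24% of the other long genes and 13.5% of all protein-coding genes. Among the other long genes with at most 7 flanking genes, 118 in number, the ratio to expectation was 0.281 (0.188 to 0.404) with wild-type sites and 0.370 (0.301 to 0.451) with double-knockout sites. The 13 fragile-site genes with at most 7 stood at 0.153 (0.0185 to 0.551) and 0.255 (0.117 to 0.484), with intervals that overlapped those of the other genes.

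The 13 fragile-site genes with 8 to 20 flanking genes stood at 0.302 (0.130 to 0.595) and 0.363 (0.233 to 0.540), and the 142 other long genes in that range at 1.00 (0.831 to 1.20) and 0.941 (0.835 to 1.06). With genes near chromosome ends left out, the values were 0.199 (0.0646 to 0.464) and 0.317 (0.193 to 0.489) for 12 fragile-site genes, and 0.685 (0.537 to 0.861) and 0.754 (0.654 to 0.865) for 128 others. So in gene-poor surroundings the 2 sets were not separated beyond counting error. In surroundings of middle density the counting intervals of the fragile-site genes lay below those of the others. The sets were not matched for length. With chromosome ends left out, the median length was 1494 kb in the 12 fragile-site genes and 675 kb in the 128 others. In wild type 3 of the 12 and 40 of the 128 held a site, and in the double knockout 7 and 75. The median ratio per gene was 0 in both sets in wild type, and 0.226 against 0.429 in the double knockout. Whether the gap holds at equal length in these surroundings was not tested. These classes were chosen with the data in view.

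**Figure D4:**
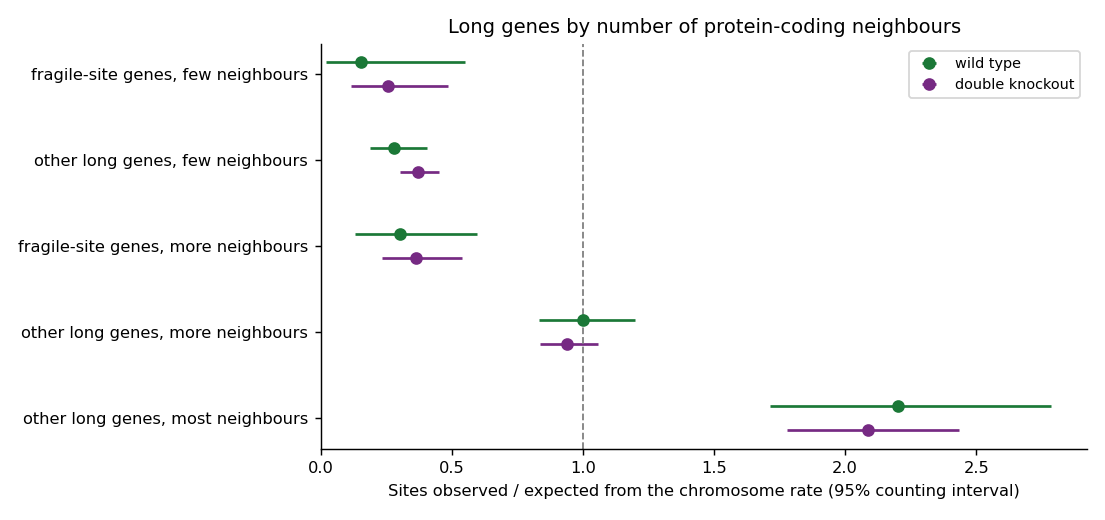
Sites observed over sites expected from the chromosome rate (x axis, with exact 95% Poisson intervals) for fragile-site genes and other long genes, by the number of protein-coding genes in the 1 Mb on either side: few, at most 7; more, 8 to 20; most, above 20. Fragile-site genes lie at 0.363 or below in both classes and both lists, and the other long genes rise from 0.281 in wild type with few neighbours to 2.20 with most. The other long genes include further genes known at fragile sites, outside the set.

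The DNA beside the genes held more sites per Mb than the genes. The flanks, 52.0 Mb when summed gene by gene, held 28 wild-type and 96 double-knockout sites, 0.538 (0.358 to 0.778) and 1.85 (1.495 to 2.25) per Mb. On chromosome X the flanks of IL1RAPL1 and DMD overlap, and the DNA they share was counted for both. Whether any site was counted for both was not checked. The gene bodies had 0.559 and 0.538 times that level, and the counting intervals of body and flanks overlapped in wild type and not in the double knockout. Gene by gene, the body was below its flanks in 17 genes in the double knockout, above in 7 and equal in 2 (LRP1B and RORA, without any site in body or flanks). In wild type it was below in 13, above in 3 (DAB1, AUTS2 and SDK1) and equal in 10. NBEA held no site against 4 wild-type and 8 double-knockout sites in its flanks, and DMD none against 2 and 6. Among the genes the other way, DAB1 had 5.15 double-knockout sites per Mb in the gene and 3 beside it.

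**Figure D5:**
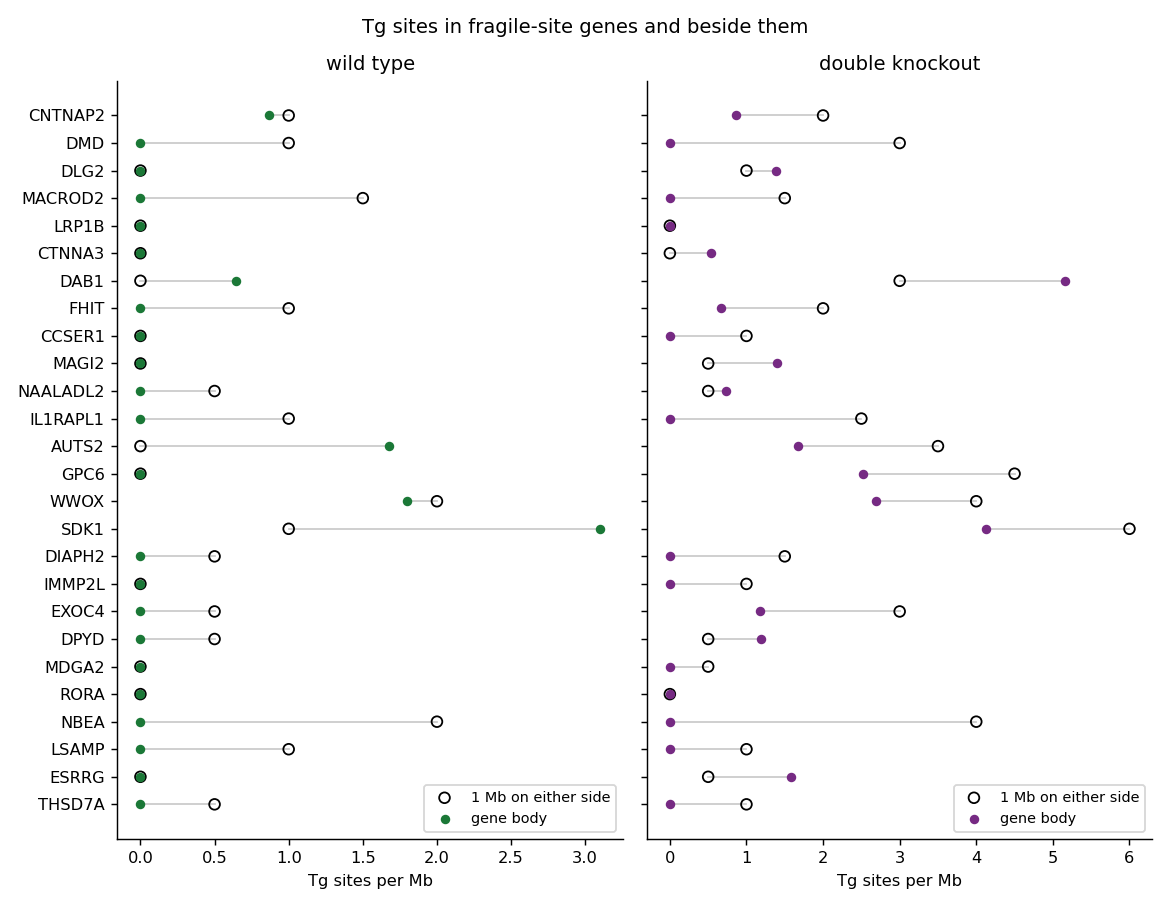
Tg sites per Mb (x axis) in the body of each of the 26 genes (filled points) and in the 1 Mb on either side (open circles), in wild type (left) and the double knockout (right). Filled points lie left of their open circle in 13 of 26 genes in wild type, where 10 are equal, and in 17 of 26 in the double knockout; SDK1 has the highest wild-type level and DAB1 the highest double-knockout level of a gene body.

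Between the genotypes, the fragile-site genes differed from the whole lists by less than the counting error. In these genes the number of sites was 3.30 times higher in the double knockout than in wild type (1.59 to 7.51 from the binomial interval of the wild-type share), and 2.54 times higher over all sites. The wild-type share was 23.3% of 43 sites (11.8% to 38.6%), and the interval held the 28.2% of the whole lists. With the double-knockout list cut to the 3688 sites of lowest p, the genes held 11 sites against 10. No gene had wild-type sites only. Sites in both lists were found in 5 genes, against 26.7% of long genes, and sites in the double knockout only in 9 (14 sites), against 27.9%.

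Of the 10 wild-type sites, 8 overlapped a double-knockout site by at least 1 bp (80.0%, 44.4% to 97.5%), against 75.3% of all other wild-type sites. Of the 33 double-knockout sites, 7 were shared (21.2%, 8.98% to 38.9%), against 28.3% of all others. The 8 shared wild-type sites were in SDK1 (3), AUTS2 (2), DAB1, CNTNAP2 and WWOX, and the double-knockout reads over the wild-type reads ranged from 1 to 2, with a median of 1.47. Over all 2776 shared wild-type sites the median was 1.59, with a middle range from 1.32 to 1.92. These ratios are not scaled for depth. Of the 26 double-knockout sites without a partner, 25 lay more than 100 kb from any wild-type site, at a median distance of 840 kb. The exception was the WWOX site at 78398938, 92.3 kb away.

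The sites in fragile-site genes had values within the range of the other sites. The median fold enrichment was 6.12 at the wild-type sites of these genes, from 3.56 to 6.95, against 5.12 for all other wild-type sites, which reached 34.0. In the double knockout the median was 5.02, from 3.01 to 7.64, against 4.93, with a highest value of 28.9. Reads at the summit had medians of 13.5 (wild type) and 16 (double knockout), against 13 and 17 at all other sites. Above the 90th percentile of −log10 q in a list lay 0 wild-type sites and 2 double-knockout sites of these genes, those in SDK1 and GPC6 with 30 reads each.

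A further 11 long genes known at fragile sites were set beside the 26 (RBFOX1, PTPRN2, PTPRG, PDE4D, CTNND2, CDH13, PCDH15, NRXN3, CSMD1, ERBB4 and CSMD3). In them lay 38 wild-type and 60 double-knockout sites, 1.94 and 1.30 times the expectation. Without PTPRN2, a phosphatase-like protein of secretory vesicles, the other 10 held 14 and 31, which was 0.772 (0.422 to 1.30) and 0.723 (0.491 to 1.03) times the expectation. CTNND2, a catenin of neurons, held 5 and 3 sites against 0.843 and 2.22 expected, and PCDH15, a protocadherin, held none against 2.93 and 6.15. Both were named after their values were seen. So a low level was not found in every long gene listed at a fragile site. The genes of 20 proteins that act under replication stress (among them ATR, CHEK1, FANCD2, BLM, WRN, MUS81 and POLH) held no site in either list. Of all protein-coding genes, 94.1% held no wild-type site and 86.0% no double-knockout site, so a lack of sites in these 20 genes is not particular to them. They span only 1.39 Mb together, and 1.54 and 4.18 sites were expected. The interval of a count of 0 reached 2.39 times the wild-type expectation and 0.883 times the double-knockout one.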

How the data were processed

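Samples were grouped by genotype and labelling as given in the labels. For each genotype the authors deposited 1 site list, recognised by the genotype word in its name and in the library titles. The tools were MACS2, Bowtie2, deepTools and bedtools, with build hg38, per the submitters' processing notes. Their versions and settings, the pooling of libraries and the control used: not given in the sources used here. The deposited score is 10 times −log10 q rounded down. The deposited fold enrichment is a ratio at the summit. The deposited −log10 p and −log10 q are the caller's, with largest q-values of 0.0450 (wild type) and 0.0489 (double knockout).

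Gene positions were those of RefSeq on GRCh38.p14, whose main chromosomes have the coordinates of hg38. Strand came from RefSeq promoter entries, which held 25 of 26 genes. Exons were not used here. Expected sites are gene length times the list's sites per base over the chromosome's annotated span (outermost gene or site). Whole summit reads were recovered from fold (reads plus 1 over background plus 1) and p (Poisson tail), within 0.001 of the deposited −log10 p at 100% of sites. Total reads per library are unknown. Counting and recovery were tested on simulated data. Python 3.11.15, numpy 2.4.6, pandas 2.3.3 and scipy 1.17.1 were used. All 26 genes were named, and those with at least 2 wild-type or 3 double-knockout sites, with FHIT and WWOX, were described in full. The genes, lists and classes were chosen with earlier results of these data known. Of the second list of genes at fragile sites, 3 are not reported here, for a reason other than their values. Alternatives covered site assignment, thresholds, list size, clustering, left-out genes and the expected rate.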

Additional observations from a re-analysis of the deposited data

How the results depend on the processing

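No paired analysis was possible because each genotype has 1 list and no value per library; for the same reason no replicate could be left out. Over the alternatives the observed over expected ratio stayed below 1 in all, at 0.183 to 0.555 in wild type (11 alternatives) and 0.265 to 0.547 in the double knockout (12). The highest values came with the rate of the 1 Mb flanks in place of the chromosome's, 0.555 and 0.547, since the flanks are themselves poor in sites. With sites of at least 5-fold enrichment the genes held 18 double-knockout sites in place of 33, and with the double-knockout list cut to the size of the wild-type list 11, which makes the ratio between genotypes 1.10 (1.00 for the whole lists by construction). Of 52 alternatives for results over the whole set, the other 47 moved counts by less than 1.5 times and ratios and shares by less than their counting intervals. Counts in single genes moved by more in 27 of 434 alternatives. With the double-knockout list cut to size this held for 13 genes, among them DAB1 (8 to 4), SDK1 (4 to 2), WWOX (3 to 1), GPC6 (3 to 1) and DLG2 (3 to 0). With a fold of at least 5 it held for 2 wild-type counts (CNTNAP2 and WWOX, each 2 to 1) and 8 double-knockout counts, among them DAB1 (8 to 4), DLG2 and GPC6 (each 3 to 1). With a −log10 q of at least 3 CNTNAP2 and WWOX fell to 1 wild-type site and NAALADL2 to 0 double-knockout sites, and with sites within 10 kb counted as 1 AUTS2 had 1 wild-type site. The rate of other long genes, an alternative added after seeing the data, gave 0.317 and 0.417. The number of expected sites limits single genes. With under 3 sites expected, a count of 0 could not be told from the chromosome rate, which holds for 20 of the 21 genes without a wild-type site. In the double knockout only 4 of the 12 genes without a site had over 3 expected.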

Other observations

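The caller's background at the summit, recovered from fold and p, had a median of 1.47 reads at the wild-type sites in fragile-site genes and 1.74 at all other wild-type sites. In the double knockout the medians were 2.14 and 2.65. Median widths were 348.5 bp and 343 bp in these genes, against 380 bp and 409 bp elsewhere.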
